A study of Mus musculus with 6 samples.

Results

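The apolipoprotein genes of mouse liver were followed through 6 polyA RNA libraries. The 10 genes were Apoa1, Apoa2, Apoa4, Apoa5, Apob, Apoc1, Apoc2, Apoc3, Apoc4 and Apoe, taken by gene symbol from a table of 55573 genes, and each symbol had 1 row. Of the 10 genes, 9 reached the mean of at least 1 FPKM (fragments per kilobase of exon, scaled to library size) that was asked of a gene for testing, and Apoc2 did not. The libraries labelled p21TKO came from liver of generation 3 mice of genotype p21-/-mTR-/-Wrn-/- on normal feed, and those labelled DKO from generation 3 mice of genotype mTR-/-Wrn-/- on the same feed, with 3 libraries each. Both genotypes therefore lack mTR (Terc, the RNA template of telomerase) and Wrn (a RecQ helicase), and p21 (Cdkn1a, a cyclin-dependent kinase inhibitor) is the difference under study. The stated aim was to find which pathways change when p21 is lost.

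The labels give no sex, and the tag 2M in every sample title is not explained there and was not read as an age. They do not say that the libraries came from separate mice, and the p-values below therefore speak of the spread among libraries, which may be technical. Transcripts of Cdkn1a, the gene said to be deleted, stood at 1.41, 11 and 6.50 FPKM in p21TKO replicates 1 to 3, against 0.761, 1.79 and 0.405 FPKM in DKO replicates 1 to 3, and were thus no lower under the p21TKO label, so every direction given for p21TKO rests on the labels. Y-linked transcripts were present in p21TKO replicate 1 and in DKO replicates 2 and 3 and were at 0 in the other 3 libraries. The FPKM denominators corresponded to 19363285 to 27061290 reads, with 18271 to 19535 genes above 0. The tissue label fitted the hepatocyte markers, with albumin (Alb) at 27220 to 37503 FPKM in p21TKO and 24412 to 26666 FPKM in DKO. Of the 10 hepatocyte markers tested, 3 had differences above 0 and 7 below (median -0.12), and 0 were called. Cyp2e1 lay the other way from Alb, at 2338, 2137 and 1030 FPKM in p21TKO, against 3633, 2902 and 4132 FPKM in DKO. Summed acute phase transcripts (15 genes) stood at 7771, 73447 and 41966 FPKM in p21TKO replicates 1 to 3, against 12796 to 13904 FPKM in DKO. Of these genes 15 of 15 had differences above 0, against 50.2% of all tested genes, and 0 were called. The sum in p21TKO replicate 1 was below that of every DKO library. Summed neutrophil markers (9 genes) ranged from 24.5 to 551.3 FPKM in p21TKO and from 10.3 to 27.7 FPKM in DKO.

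Apolipoproteins are the protein coat of the particles that carry fat and cholesterol through blood, and the liver is their main source. Apob is the scaffold of very low density lipoprotein, with 1 molecule per particle that never leaves it. Apoa1 and Apoa2 are the main proteins of high density lipoprotein, the C apolipoproteins tune how fast lipases strip triglyceride from a particle, and Apoe is the ligand by which remnants are cleared. Many of these genes sit side by side in the genome. Apoa1, Apoc3, Apoa4 and Apoa5 lie within 43.3 kb of chromosome 9 (46228580 to 46271919, GRCm38), and Apoe, Apoc1, Apoc4 and Apoc2 lie within 27.6 kb of chromosome 7 (19671579 to 19699188). Apoa2 lies on chromosome 1 (171225054 to 171226379) and Apob on chromosome 12 (7977648 to 8016835).

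The sequence before the start of Apoa1, Apoa2, Apoa4 and Apob is shown because the first 3 had the library patterns described below and Apob was the 1 gene whose groups did not overlap. Each is the + strand of GRCm38.p6 from RefSeq, trimmed so that it ends before the first annotated start of the gene. Capitals mark matches to the TATA box motif TATAAA or, in Apob, to the C/EBP core motif TTGCNNAA on the opposite strand. The TATAAA match lies at bases 39 to 44 of the 250 shown for Apoa2 and at bases 191 to 196 of the 221 shown for Apob. A match is one of letters only, and its use by the promoter was not tested.
Apoa1 (chr9:46228380-46228579): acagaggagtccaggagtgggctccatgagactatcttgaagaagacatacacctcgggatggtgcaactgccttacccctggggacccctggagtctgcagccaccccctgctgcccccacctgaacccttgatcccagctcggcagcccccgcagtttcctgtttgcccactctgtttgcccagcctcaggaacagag
Apoa2 (chr1:171224804-171225053): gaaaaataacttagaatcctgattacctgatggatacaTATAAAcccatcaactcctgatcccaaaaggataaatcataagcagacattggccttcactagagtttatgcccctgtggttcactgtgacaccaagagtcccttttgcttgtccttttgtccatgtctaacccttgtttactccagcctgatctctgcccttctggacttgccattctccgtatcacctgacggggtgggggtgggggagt
Apoa4 (chr9:46240594-46240695): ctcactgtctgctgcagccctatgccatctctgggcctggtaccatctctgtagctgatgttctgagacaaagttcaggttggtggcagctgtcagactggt
Apob (chr12:7977427-7977647): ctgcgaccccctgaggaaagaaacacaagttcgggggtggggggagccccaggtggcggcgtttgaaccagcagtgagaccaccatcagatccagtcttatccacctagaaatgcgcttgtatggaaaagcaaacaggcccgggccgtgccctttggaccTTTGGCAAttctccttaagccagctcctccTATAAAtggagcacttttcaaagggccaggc
RefSeq windows of 300 bases were found for 8 of the 10 genes, and Apoc1 and Apoc3 were not among them. Both strands were searched for 5 motifs. TATAAA was present in 3 of the 8 windows (Apoa2, Apoa5 and Apob), against 13.6% of 32851 windows of the same length. The nuclear receptor half-site AGGTCA was present in 2 of 8 (Apoc2 and Apoc4), against 16.3%. TTGCNNAA was present in 1 of 8, against 10.8%. The HNF4A core CAAAGTCCA and the STAT core TTCNNNGAA were present in 0 of 8, against 0.475% and 8.3%. A missing match says only that these letters are not in the window.

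These 10 genes made up a large part of the liver transcriptome in every library. Their summed level was 53081, 33024 and 26184 FPKM in p21TKO replicates 1 to 3, against 30151, 51511 and 30147 FPKM in DKO replicates 1 to 3. p21TKO replicate 1 and DKO replicate 2 were the high libraries, and the groups overlapped. The sums averaged 37430 ± 13979 FPKM in p21TKO and 37270 ± 12333 FPKM in DKO (SD, n = 3 each). As a share of all FPKM the sum was 6.80% to 11.2% in p21TKO and 7.53% to 10.3% in DKO. As a share of reads it was 3.29% to 5.99% in p21TKO and 3.99% to 6.07% in DKO. In bulk tissue, fewer cells of a type and less RNA per cell cannot be told apart.

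Listed levels spanned more than 4 orders of magnitude, but only through Apoc2, whose level is uncertain for the reasons given below. The other genes had means from 128.1 to 13180 FPKM. By mean FPKM over the 6 libraries the order was Apoa2 (13180), Apoa1 (9879), Apoe (8034), Apoc1 (3229), Apoc3 (1979), Apoa5 (365.5), Apob (281.8), Apoc4 (272.6), Apoa4 (128.1) and Apoc2 (0.605). Most neighbours in this order overlapped in range. Apoc3 and Apoa5 did not (1287 to 3137 against 264.6 to 485.9 FPKM), and neither did Apoa4 and Apoc2. Apob was above Apoc4 in 3 of 6 libraries. Apoa2 was above Apoa1, Apoa1 above Apoe and Apoa5 above Apob in 4 of 6 libraries each. The order within these pairs was thus not settled. FPKM is scaled by exon length, so the modest FPKM of Apob stands for 51183 to 116321 reads over 13934 exon bases, while Apoa2 reached 93718 to 233266 reads over 537.

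**Figure D1:**
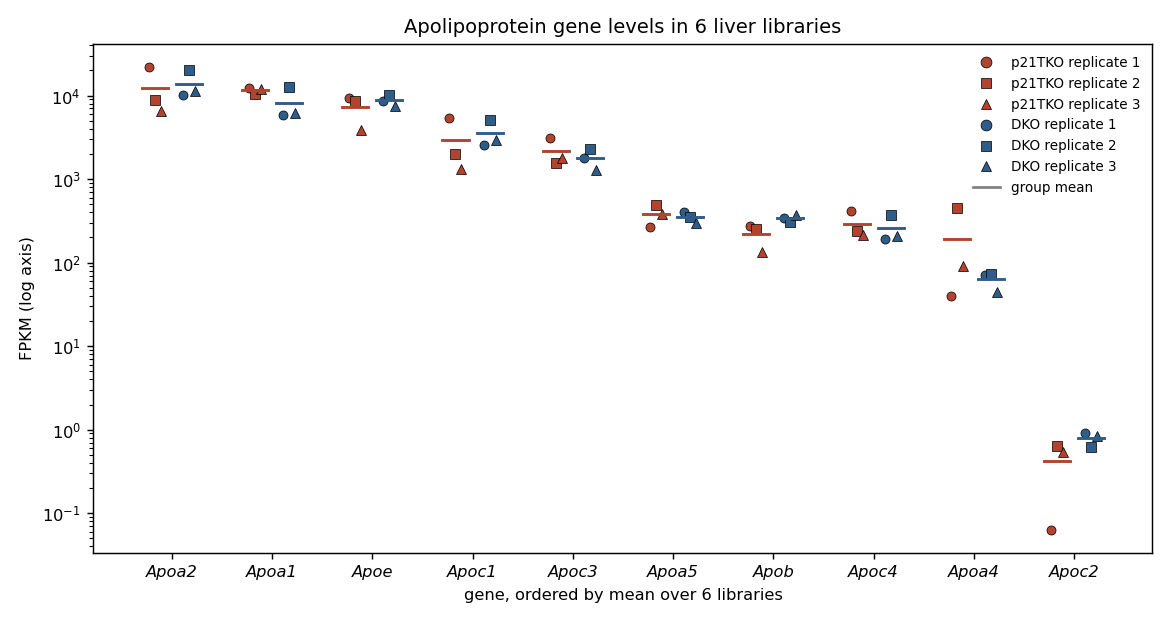
FPKM (log axis) of the 10 apolipoprotein genes in each of 6 libraries, with p21TKO left of DKO for each gene, 1 marker shape per replicate number and a line at each group mean. Apoa2 and Apoa1 have the highest means, with libraries at 5921 to 21903 FPKM. Apoc2, whose level is uncertain, stands alone below 1 FPKM. The groups overlap for every gene except Apob.

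None of the 9 tested genes passed the gene test between the libraries labelled p21TKO and DKO (limma on log2(FPKM + 1), Benjamini-Hochberg adjusted p under 0.05 over 9538 genes). Over all tested genes 7 were called, or 0.0734% (0.0315% higher and 0.0419% lower in p21TKO). At an unadjusted p under 0.05 the count was 0 of 9 apolipoprotein genes, against 9.38% of all tested genes, and limma voom on recovered reads also called 0. Of the 9, 5 had differences above 0 and 4 below, with a median of 0.07 on the log2 scale, beside 50.2% above 0 and a median of 0.00 over all tested genes. Every difference below is p21TKO minus DKO on the log2(FPKM + 1) scale.

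The proteins of high density lipoprotein come first. Apoa1, the major one and the activator of the cholesterol-esterifying enzyme Lcat, stood at 12214, 10543 and 11942 FPKM in p21TKO replicates 1 to 3, against 5921, 12531 and 6125 FPKM in DKO replicates 1 to 3. All p21TKO libraries and DKO replicate 2 were high, and DKO replicates 1 and 3 were low. The means were 11567 ± 896.5 FPKM in p21TKO and 8192 ± 3759 FPKM in DKO (SD, n = 3 each). The difference of 0.59 (SE 0.41, 95% interval -0.40 to 1.57) did not pass (limma adjusted p = 0.629).

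Apoa2, the other main protein of these particles, stood at 21903, 8959 and 6449 FPKM in p21TKO replicates 1 to 3, against 10272, 20188 and 11311 FPKM in DKO replicates 1 to 3. The highest library of all was a p21TKO one, and so were the 2 lowest. Its difference of -0.30 (SE 0.56, 95% interval -1.64 to 1.05) did not pass (limma adjusted p = 0.867), and it was 0.08 without p21TKO replicate 3 and 0.01 without DKO replicate 2.

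The ratio of Apoa1 to Apoa2 FPKM set p21TKO replicates 2 and 3 apart from the other 4 libraries. It was 0.558, 1.18 and 1.85 in p21TKO replicates 1 to 3, against 0.576, 0.621 and 0.542 in DKO replicates 1 to 3. Apoa2 exceeded Apoa1 in the 3 DKO libraries and in p21TKO replicate 1, and Apoa1 exceeded Apoa2 in p21TKO replicates 2 and 3. A ratio within a library does not depend on scaling between libraries, but it does not say which of the genes moved. It was chosen after its values were seen, and it was not tested. The 2 libraries with the high ratio also had the highest acute phase sums (73447 and 41966 FPKM, against 7771 FPKM in p21TKO replicate 1) and the highest neutrophil sums (551.3 and 219.2 FPKM, against 24.5 FPKM). The part of either in the ratio was not tested. Among libraries without Y-linked transcripts the ratio was 1.18 and 1.85 in p21TKO and 0.576 in DKO, and among those with them it was 0.558 in p21TKO and 0.621 and 0.542 in DKO.

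Apoa4, a protein of chylomicrons and high density lipoprotein whose hepatic expression in mice is known to vary with feeding and lipid load, was the most variable of the tested genes. It stood at 39.3, 447.9 and 90.8 FPKM in p21TKO replicates 1 to 3, against 71.9, 74.0 and 44.4 FPKM in DKO replicates 1 to 3. p21TKO replicate 2 was far above the rest and p21TKO replicate 1 was the lowest library, an 11.4-fold span. The difference of 0.91 (SE 0.83, 95% interval -1.08 to 2.91) did not pass (limma adjusted p = 0.71), and without p21TKO replicate 2 it was -0.05. The FPKM ratio of Apoa4 to Apoa1, which lies in the same cluster, was 0.00322, 0.0425 and 0.00761 in p21TKO replicates 1 to 3, against 0.0121, 0.0059 and 0.00725 in DKO replicates 1 to 3.

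The genes with library profiles closest to Apoa4 were Lbp, which encodes lipopolysaccharide-binding protein, haptoglobin (Hp) and hemopexin (Hpx), all plasma proteins of the acute phase. Likeness was the root mean square difference of centred log2(FPKM + 1) over the 6 libraries, among 2977 genes with a mean of at least 10 FPKM, and was 0.33, 0.36 and 0.38. Hp stood at 2402, 18199 and 6597 FPKM in p21TKO replicates 1 to 3, against 2606, 4514 and 2723 FPKM in DKO replicates 1 to 3. Hpx stood at 1765, 16345 and 7113 FPKM in p21TKO, against 3238, 3115 and 2944 FPKM in DKO. Both genes, like Apoa4, were highest in p21TKO replicate 2. The part of the acute phase in the Apoa4 values was not tested. Of the exon bases of Apoa4, 69.8% are also annotated to genes on the opposite strand (Gm47528 and Gm10680). Nothing used here states whether counting used strand, so the level of Apoa4 is uncertain, although it rested on 1382 to 18661 reads. Apoa4 is also an enterocyte gene. The summed level of 9 enterocyte genes was 30.7 to 87.2 FPKM in p21TKO and 73.0 to 94.0 FPKM in DKO, nearly all from Fabp2 (16.4 to 57.3 FPKM in p21TKO and 39.9 to 59.5 FPKM in DKO) and Anpep (14.2 to 29.8 FPKM in p21TKO and 29.6 to 34.5 FPKM in DKO). Of the other 7 genes, Sis, Alpi, Cdx1 and Cdx2 were at 0 in all 6 libraries and Vil1, Lct and Rbp2 did not exceed 0.0906 FPKM. The sum was lowest in p21TKO replicate 3 and its part in the Apoa4 values was not tested.

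**Figure D2:**
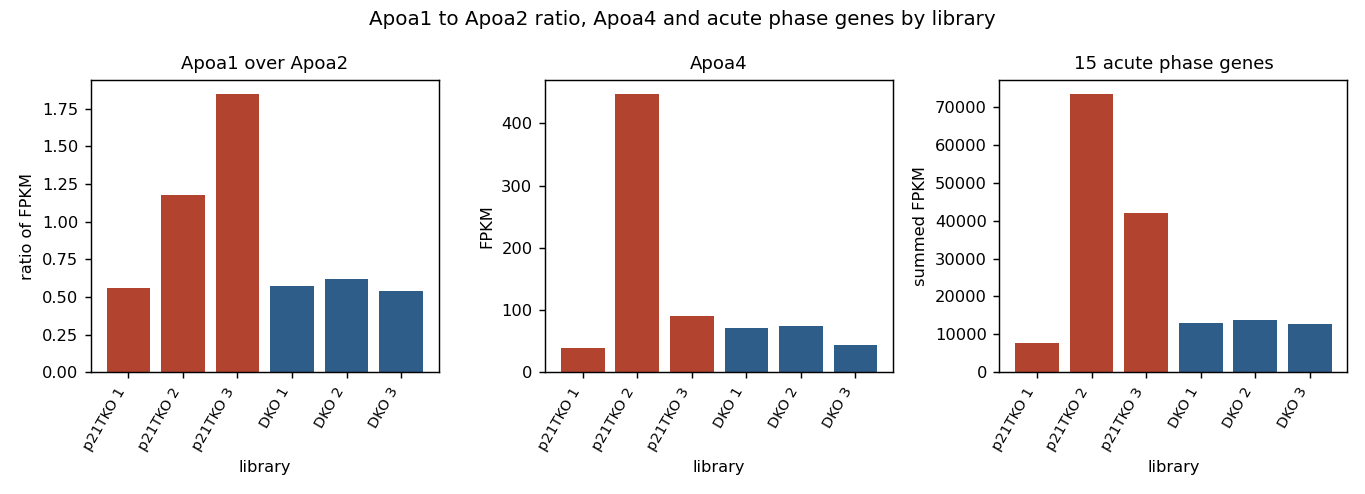
Bars by library, p21TKO left of DKO, for the Apoa1 to Apoa2 ratio of FPKM, the FPKM of Apoa4 and the summed FPKM of 15 acute phase genes. p21TKO replicates 2 and 3 have the highest ratios (1.18 and 1.85) and acute phase sums (73447 and 41966 FPKM), while Apoa4 is high mainly in p21TKO replicate 2 (447.9 FPKM).

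Apob, the scaffold of very low and low density lipoprotein, was the 1 apolipoprotein gene whose groups did not overlap. It stood at 277.4, 255.9 and 135.7 FPKM in p21TKO replicates 1 to 3, against 339.2, 306.9 and 375.6 FPKM in DKO replicates 1 to 3. Every p21TKO library was below every DKO library, with p21TKO replicate 3 the lowest by far. The means were 223 ± 76.3 FPKM in p21TKO and 340.6 ± 34.4 FPKM in DKO (SD, n = 3 each). The difference of -0.67 (SE 0.35, 95% interval -1.51 to 0.17) did not pass (limma adjusted p = 0.563). Separation of this kind was common, since 8.49% of all tested genes lay wholly lower in p21TKO, 6.93% wholly higher, and 15.4% were separated in either direction. The difference was -0.35 without p21TKO replicate 3, and -0.29 within libraries with Y-linked transcripts and -0.86 within those without. Apob had no exon bases shared with another gene.

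Apoe, the ligand for uptake of remnant particles, stood at 9442, 8510 and 3876 FPKM in p21TKO replicates 1 to 3, against 8564, 10273 and 7539 FPKM in DKO replicates 1 to 3. p21TKO replicate 3 was the lowest library and DKO replicate 2 the highest, and the groups overlapped. The difference of -0.36 (SE 0.45, 95% interval -1.43 to 0.71) did not pass (limma adjusted p = 0.78), and without p21TKO replicate 3 it was 0.04. Macrophages are a second source of Apoe. The summed level of 11 Kupffer cell and macrophage markers was 41.7, 376.5 and 206.9 FPKM in p21TKO replicates 1 to 3, against 126.4, 87.5 and 55.0 FPKM in DKO. Of the markers 11 of 11 had differences above 0, against 50.2% of all tested genes, and 0 were called. The lowest sum was that of p21TKO replicate 1. The part of macrophage RNA in the Apoe values was not tested.

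The small C apolipoproteins modulate triglyceride hydrolysis and remnant uptake. Apoc1, which slows the uptake of remnant particles by the liver, stood at 5386, 2018 and 1322 FPKM in p21TKO replicates 1 to 3, against 2593, 5093 and 2960 FPKM in DKO replicates 1 to 3. p21TKO replicate 1 and DKO replicate 2 were high, and p21TKO replicates 2 and 3 were the lowest. Its difference of -0.48 (SE 0.59) did not pass (limma adjusted p = 0.779), and leaving out p21TKO replicate 1 gave -1.05, leaving out replicate 3 -0.04. The profile of Apoc1 was closest to those of Mettl26, Aes and Ypel3 (root mean square differences 0.08, 0.09 and 0.12). Aes, a Groucho-family corepressor gene, stood at 279.9, 101 and 75.5 FPKM in p21TKO replicates 1 to 3, against 151.4, 275.1 and 147.2 FPKM in DKO replicates 1 to 3.

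Apoc3, an inhibitor of lipoprotein lipase and of remnant uptake, stood at 3137, 1564 and 1771 FPKM in p21TKO replicates 1 to 3, against 1792, 2320 and 1287 FPKM in DKO replicates 1 to 3. The groups overlapped, with p21TKO replicate 1 the highest library and DKO replicate 3 the lowest. The difference of 0.23 (SE 0.41) did not pass (limma adjusted p = 0.858), and it was -0.07 without p21TKO replicate 1. Apoc4, a minor protein of triglyceride-rich particles, stood at 416.1, 239.6 and 211.2 FPKM in p21TKO replicates 1 to 3, against 193.9, 368.3 and 206.2 FPKM in DKO replicates 1 to 3. It was high in p21TKO replicate 1 and DKO replicate 2, and the groups overlapped. Its difference of 0.17 (SE 0.40) did not pass (limma adjusted p = 0.892), and it was -0.12 without p21TKO replicate 1.

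Apoc2, the cofactor that lipoprotein lipase requires, was listed at 0.0635, 0.643 and 0.545 FPKM in p21TKO replicates 1 to 3, against 0.921, 0.629 and 0.83 FPKM in DKO replicates 1 to 3. These values rested on 1 read in p21TKO replicate 1 and on 11 to 18 reads in the others. Of its 813 exon bases, 79.5% are also annotated to Gm44805, an overlapping gene on the same strand that joins the start of Apoc4 to the exons of Apoc2. Gm44805 was itself at 0.068 FPKM in p21TKO replicate 1 and at 0 in the other 5 libraries. Both genes were thus listed below 1 FPKM in every library. Whether reads on the shared bases were given to either gene, or to neither, is not stated in the sources used here. The level of Apoc2 is therefore uncertain and was not compared between groups. Apoc4 shares 4.7% of its exon bases with the same gene.

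Apoa5, a low-abundance plasma protein that promotes triglyceride hydrolysis by lipoprotein lipase, was the least variable of the tested genes. It stood at 264.6, 485.9 and 385.1 FPKM in p21TKO replicates 1 to 3, against 403.2, 356.2 and 298.2 FPKM in DKO replicates 1 to 3. The highest and the lowest library were both p21TKO. The difference of 0.07 (SE 0.33, 95% interval -0.72 to 0.86) did not pass (limma adjusted p = 0.952). Of its exon bases, 20.8% are also annotated to Gm47544 on the opposite strand. The FPKM ratio of Apoc3, the inhibitor, to Apoa5, the promoter of hydrolysis, was 11.9, 3.22 and 4.6 in p21TKO replicates 1 to 3, against 4.45, 6.51 and 4.32 in DKO replicates 1 to 3. p21TKO held both the highest and the lowest value of this ratio.

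**Figure D3:**
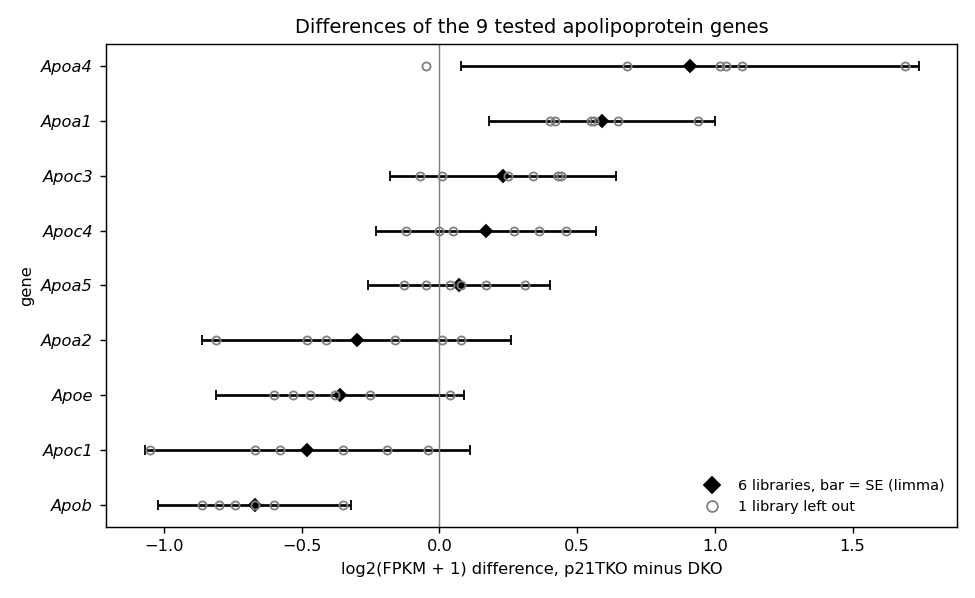
Difference in log2(FPKM + 1), p21TKO minus DKO, for the 9 tested apolipoprotein genes, with the limma standard error (black) and the 6 values obtained when 1 library was left out (open circles). Apob stays below 0 (-0.86 to -0.35) and Apoa1 above 0 (0.40 to 0.94) in all 6, while Apoa4 runs from -0.05 to 1.69.

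Neighbours on a chromosome did not always share a library profile. The closest pair among the 9 tested genes was Apoa2 and Apoc1, which lie on different chromosomes, with a root mean square difference of 0.12. Apoc3 and Apoc4 (0.22) and Apob and Apoe (0.27) followed, again on different chromosomes. The 9 pairs within a cluster had a median of 0.55 (0.38 to 1.34), and the 27 other pairs had a median of 0.62 (0.12 to 1.62). The members share libraries, so these pairs are not independent and were not tested. In the chromosome 9 cluster, Apoa1 and Apoc3 were the closest pair (0.38) and Apoc3 and Apoa4 the most distant (1.34). Between libraries with and without Y-linked transcripts, 4 of the 9 tested genes (Apoa2, Apoa4, Apoc1 and Apoc3) were separated by label in opposite directions, against 18.9% of all tested genes, with 1 library against 2 in each class.

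**Figure D4:**
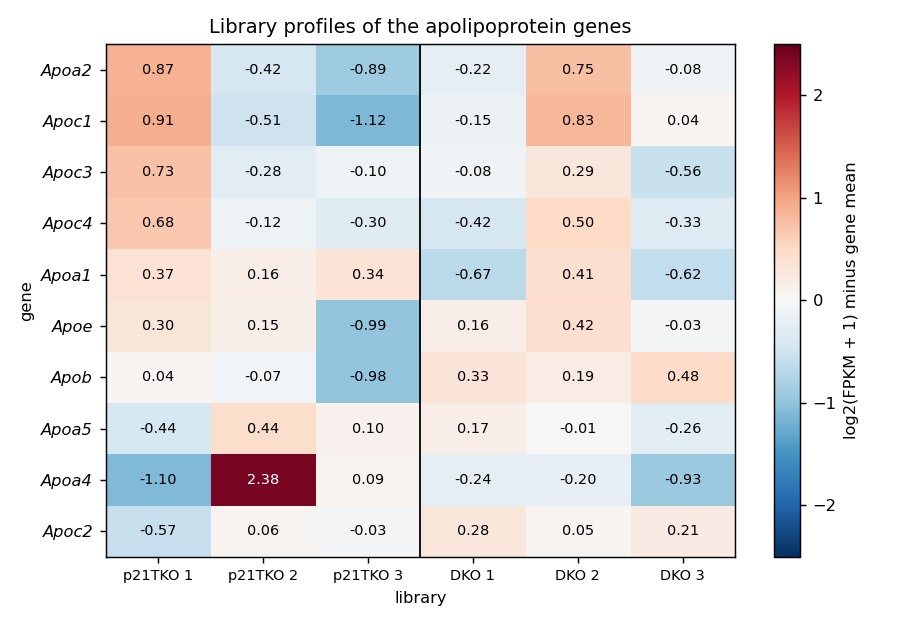
log2(FPKM + 1) minus the gene's mean over 6 libraries (colour and number) for the 10 apolipoprotein genes, p21TKO libraries left of DKO. Apoa2 and Apoc1 are high together in p21TKO replicate 1 (0.87 and 0.91) and DKO replicate 2 (0.75 and 0.83) and low in p21TKO replicate 3 (-0.89 and -1.12), while Apoa4 reaches 2.38 in p21TKO replicate 2.

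The libraries in which Apoa2, Apoc1, Apoc3 and Apoc4 were highest also differed from the others in short genes at large. Among 911 tested genes with under 1000 annotated exon bases, the median centred log2(FPKM + 1) was 0.15, -0.07 and 0.07 in p21TKO replicates 1 to 3, against -0.19, 0.15 and -0.16 in DKO replicates 1 to 3. Among 3302 genes with 5000 or more it was -0.03, -0.02 and -0.07 in p21TKO, against 0.04, -0.01 and 0.10 in DKO. Apoa2 has 537 exon bases, Apoc1 744, Apoc3 1014, Apoa1 1236 and Apob 13934. Apoc4, with 2537, and Apoe, with 2138, were longer. These lengths count every exon base annotated to a gene, so a given transcript can be shorter. Mitochondrially encoded transcripts took 8.2%, 3.6% and 4.4% of reads in p21TKO replicates 1 to 3, against 6.2%, 13% and 6.6% in DKO replicates 1 to 3. The part of these shifts in the apolipoprotein values was not tested.

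**Figure D5:**
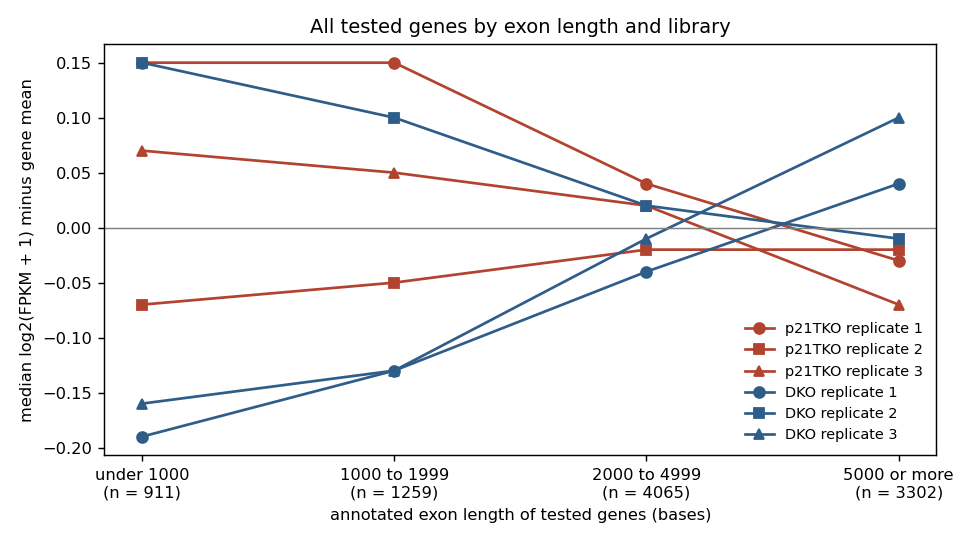
Median of log2(FPKM + 1) minus the gene mean over all tested genes in 4 classes of annotated exon length (bases), with 1 line per library. In the shortest class p21TKO replicate 1 and DKO replicate 2 are highest (0.15 each) and DKO replicates 1 and 3 lowest (-0.19 and -0.16), while in the longest class DKO replicates 1 and 3 are highest (0.04 and 0.10).

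Genes that act with the apolipoproteins were read from the same fit, and 0 of 80 tested in 7 lists were called by limma, against 0.0734% of all tested genes, and 0 by voom. At an unadjusted p under 0.05 there were 5 of 80, against 9.38% of all tested genes. The groups of 10 of the 80 did not overlap, against 15.4% of all tested genes. None of the 10 was in the lists of Apob mRNA editing, receptors, lipases or other apolipoproteins. The lists were chosen with earlier results of these data known. For assembly and secretion of very low density lipoprotein, 11 of 12 genes were tested, 5 with differences above 0 and 6 below (median -0.08). Mttp, the transfer protein that loads lipid onto Apob, stood at 34.9 ± 8.48 FPKM in p21TKO and 37.1 ± 9.56 FPKM in DKO (SD, n = 3 each). P4hb, its partner subunit and a general protein disulfide isomerase, was at 435, 710.5 and 774.9 FPKM in p21TKO, against 402.7, 403.6 and 434.4 FPKM in DKO (0.59, limma adjusted p = 0.574). The cargo receptor gene Surf4 was at 85.5 to 96.0 FPKM in p21TKO and 63.4 to 84.1 FPKM in DKO. These 2 were the genes of the list whose groups did not overlap, against 15.4% of all tested genes.

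The 4 genes of Apob mRNA editing, which makes the short form of the protein, were tested and 3 had differences below 0. The deaminase gene Apobec1 stood at 7.45, 5.30 and 3.06 FPKM in p21TKO and 3.16, 8.74 and 4.15 FPKM in DKO. Its cofactor gene A1cf stood at 8.40, 15 and 9.62 FPKM in p21TKO and 25.0, 8.85 and 30.1 FPKM in DKO (-0.77, limma adjusted p = 0.589). Rbm47, a further RNA-binding cofactor gene, had the smallest p of the list, at 11.5, 4.18 and 4.29 FPKM in p21TKO and 11.3, 16.1 and 7.18 FPKM in DKO (-0.78, limma adjusted p = 0.573). Gene-level FPKM say nothing of the edited fraction of Apob.

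Of the receptor and uptake genes 13 of 15 were tested, 7 with differences above 0 and 6 below (median 0.05). Sort1, a sorting receptor gene, had the smallest p of the list, at 3.34, 1.46 and 1.57 FPKM in p21TKO and 2.61, 3.60 and 3.83 FPKM in DKO (-0.52, limma adjusted p = 0.545). Cd36, a fatty acid and lipoprotein scavenger receptor gene, stood at 1.55, 22.3 and 15.1 FPKM in p21TKO and 4.65, 3.62 and 3.75 FPKM in DKO.

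All 12 lipase and particle-modifying genes were tested, 4 with differences above 0 and 8 below (median -0.41). Angptl8, which takes part in the inhibition of lipoprotein lipase, stood at 72.5, 37.1 and 109 FPKM in p21TKO, against 11.8, 54.0 and 13.8 FPKM in DKO (1.63, limma adjusted p = 0.523). Lipg, the endothelial lipase gene, stood at 4.71, 1.47 and 0.392 FPKM in p21TKO, against 10.9, 4.49 and 4.25 FPKM in DKO (-1.38, limma adjusted p = 0.523). The hepatic lipase gene Lipc stood at 52.8, 22.9 and 6.26 FPKM in p21TKO, against 70.9, 38.5 and 61.4 FPKM in DKO (-1.42, limma adjusted p = 0.544). Gpihbp1, the endothelial anchor of lipoprotein lipase, was at 0.809, 14.3 and 11.8 FPKM in p21TKO and 1.0 to 1.73 FPKM in DKO, and the summed level of 8 liver endothelial markers was 16.6, 82.4 and 43.3 FPKM in p21TKO and 16.4 to 27.8 FPKM in DKO. The part of endothelial RNA in the Gpihbp1 values was not tested.

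Of the genes of sterol export 5 of 6 were tested, 2 with differences above 0 and 3 below (median -0.12), and the groups of 2 did not overlap, against 15.4% of all tested genes. Abcg5 and Abcg8, which form the pump that sends sterol into bile, stood at 29.1, 23.3 and 25.2 FPKM and at 17.6, 18.5 and 17.7 FPKM in p21TKO. In DKO, Abcg5 stood at 56.0, 36.2 and 31.4 FPKM and Abcg8 at 42.0, 23.8 and 23.9 FPKM. Their differences of -0.61 and -0.66 did not pass (limma adjusted p = 0.527 and 0.523). Abca1, which loads lipid onto Apoa1, had a difference of -0.12 (limma adjusted p = 0.857).

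Of 26 transcription factor genes known to act on apolipoprotein genes 25 were tested, 8 with differences above 0 and 17 below (median -0.27). Hnf4a, a driver of most apolipoprotein genes in hepatocytes, was at 150.7 to 163.8 FPKM in p21TKO and 118.2 to 147.4 FPKM in DKO (0.23, limma adjusted p = 0.731). Creb3l3, which is known to activate Apoa4 and Apoa5 in mice, was at 76.8, 68.3 and 54.4 FPKM in p21TKO and 80.4, 79.6 and 103.5 FPKM in DKO (-0.40, limma adjusted p = 0.602). Its part in the Apoa4 and Apoa5 values was not tested. Mlxipl, a carbohydrate-responsive factor, was at 13.1, 5.44 and 3.14 FPKM in p21TKO and 19.1, 16.8 and 20.6 FPKM in DKO (-1.46, limma adjusted p = 0.523). Nr2f2, which represses several apolipoprotein promoters, was at 1.35 to 1.95 FPKM in p21TKO and 2.60 to 2.99 FPKM in DKO (-0.47, limma adjusted p = 0.523). The groups of 6 of the 25 did not overlap, with Hnf4a and Foxa3 higher in p21TKO and Creb3l3, Nr1h4, Nr2f2 and Mlxipl lower, against 15.4% of all tested genes.

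Other apolipoprotein-like genes were tested in 10 of 14 cases, 2 with differences above 0 and 8 below (median -0.18). Apom, a high density lipoprotein protein that carries sphingosine-1-phosphate, was level across libraries, at 272.6 ± 15.7 FPKM in p21TKO and 265.8 ± 11.2 FPKM in DKO (SD, n = 3 each). Apol7a, an apolipoprotein L gene, had the smallest p of the list, at 28.4, 19.8 and 5.65 FPKM in p21TKO and 37.7, 27.7 and 41 FPKM in DKO (-1.17, limma adjusted p = 0.531). Apol9b, another apolipoprotein L gene, spanned 137, 22.1 and 6.37 FPKM in p21TKO, against 86.7, 110.5 and 69.9 FPKM in DKO (-1.63, limma adjusted p = 0.590). Apol9a, its near copy, followed at 19.1, 3.84 and 2.39 FPKM in p21TKO and 13.1, 16.2 and 9.25 FPKM in DKO, and reads could be divided between the 2 genes. Without p21TKO replicate 1, 7 of the 80 tested genes of the 7 lists were called, against 5.19% of all tested genes. They were Apol9a (-1.74), Apol9b (-2.76), Mlxipl (-1.94) and Nr1d1 (-1.13), which were lower, and Cd36 (1.96), Gpihbp1 (2.56) and Mylip (1.23), which were higher (limma adjusted p from 0.00402 to 0.0361). The p21TKO libraries left, replicates 2 and 3, both lacked Y-linked transcripts and had the highest acute phase and neutrophil sums. The part of these in the calls cannot be told apart from the label. None of the 9 tested apolipoprotein genes was called in that comparison, with limma adjusted p from 0.186 to 0.922, and Apoc2 was not tested.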

How the data were processed

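PolyA RNA of liver was measured in 3 libraries labelled p21TKO and 3 labelled DKO, and RNA was isolated with TRIzol and prepared with a NEBNext Ultra kit, per the labels' protocols. The authors deposited 1 FPKM value per gene and library. The submitters' processing notes list HISAT2 2.0.5 and featureCounts 1.5.0-p3, beside DESeq2 1.20.0, CASAVA 1.8 and fastp, and name human builds although the gene identifiers are mouse. Whether the libraries were counted by strand is not given in the sources used. Coordinates and exon lengths are those of GENCODE M21 (GRCm38), matched for 55480 of 55573 genes. FPKM times exon length gave whole reads within 0.02 for 99.3% of values up to 2000 reads in each library. The test was two-sided limma 3.58.1 in R 4.3.3 with an intensity trend, applied to log2(FPKM + 1) of each gene whose mean reached 1 FPKM, after a check on simulated data. The low-value filter removed Apoc2. With 3 against 3 libraries an exact permutation test cannot reach 0.05, so none was used. Replicate numbers were not treated as pairs in the main test. The members, lists and tests were chosen with earlier results of these data known. Genes named from lists were up to 5 with the smallest p in each, and any called. Other genes are named for a stated role or for separated groups and were chosen after their values were seen. Alternatives covered the pseudocount (0.1), filters, scaling, trend, a replicate block, a sex term, voom, and left-out libraries. Some genes of the lists are not reported here. Plots used matplotlib 3.10.9 in Python 3.11.15.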

Additional observations from a re-analysis of the deposited data

Results flagged for a closer look

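For 4 of the 9 tested apolipoprotein genes the p21TKO libraries lay to one side of the DKO libraries among those with Y-linked transcripts and to the other side among those without, a pattern that 18.9% of all tested genes also had. The classes were read from the data (p21TKO replicate 1 and DKO replicates 2 and 3 with such transcripts, p21TKO replicates 2 and 3 and DKO replicate 1 without), and each side of each contrast holds 1 or 2 libraries. For Apoa2 the p21TKO minus DKO difference in log2(FPKM + 1) was 0.54 with Y-linked transcripts and -0.43 without, 0.97 apart. For Apoc1 it was 0.47 and -0.67, 1.14 apart. For Apoc3 it was 0.86 and -0.11, 0.97 apart. For Apoa4 it was -0.53 and 1.48, so the gap was -2.01. As an interaction term in limma with 2 residual degrees of freedom none of these gaps passed (adjusted p from 0.887 to 0.957 over 9538 genes, of which 13 passed). Class and the acute phase sums moved together within p21TKO (7771 FPKM with Y-linked transcripts, 41966 and 73447 FPKM without), so they cannot be told apart in that group. In DKO the sums were alike in both classes (13904 and 12796 FPKM with Y-linked transcripts, 13000 FPKM without). The part of either in these gaps was not tested.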

How the results depend on the processing

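The count of called apolipoprotein genes was 0 under each of 16 alternatives, with limma adjusted p from 0.156 to 1. The count over all tested genes was 7 as reported, 1 with no filter, 4 at a mean FPKM of at least 5, 0 with the replicate block (588 at an unadjusted p under 0.05), 1 with voom and 1 to 495 when a library was left out, the 495 without p21TKO replicate 1. With both p21TKO replicate 1 and DKO replicate 2 left out, chosen after seeing the data, it was 170, and 3 genes of the pathway lists were called, where 0 were called with all libraries and 0 to 7 with 1 left out. Same-numbered libraries did not deviate together (r = -0.439, -0.487 and -0.072 across genes). Presence of Y-linked transcripts differed within every same-numbered pair, so this check cannot exclude a pairing. With a sex term the differences of Apoa2 and Apoa5 changed sign, to 0.05 and -0.10. Signs also changed when a library was left out, with ranges of -0.81 to 0.08 for Apoa2, -0.05 to 1.69 for Apoa4, -0.13 to 0.31 for Apoa5, -0.07 to 0.44 for Apoc3, -0.12 to 0.46 for Apoc4 and -0.60 to 0.04 for Apoe. The cause was not tested. Apob, Apoa1 and Apoc1 kept their sign in all 16, although Apoc1 was at 0.47 within libraries with Y-linked transcripts. Ratios and shares within a library are the same under any scaling. Scaling by median ratios gave summed means of 37214 FPKM in p21TKO and 36823 FPKM in DKO, and no scaling moved the median of all genes by over 0.1. Apoc2 alone among the 10 rested on few reads (1 to 18 a library), and 79.5% of its exon bases are shared with Gm44805.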
